A study of Homo sapiens with 21 samples.

Results

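The *MDM2*, *MDM4*, *PPM1D*, *CDKN1A* and *TP53INP1* genes of the p53 network were described here as RNA targets of HNRNPK. The members were taken by gene name from the deposited lists of HNRNPK binding clusters, and they held 278 of the 778762 clusters of the series, or 5 of its 18322 named genes. HNRNPK had been crosslinked to RNA in MDA-MB-231 cells, a human triple-negative breast cancer line, with 4-thiouridine and ultraviolet light (PAR-CLIP). The crosslinked RNA was recovered with an antibody to HNRNPK and its isoform HNRNPJ from parental cells and from cells in which *KRT19*, the gene for keratin 19, had been knocked out with CRISPR/Cas9 (KO). Each cell line gave 1 cytoplasmic and 1 nuclear library, so no condition had a replicate. Both cell lines were grown and labelled alike, no siRNA or plasmid is given for these 4 libraries, and whether the KO cells are a single clone is not given in the sources used here. RNA levels of the 17 RNA-seq samples of the series were not analysed here.

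The p53 protein is a transcription factor that is held low in unstressed cells and released by DNA damage and other stress. MDM2 is the ubiquitin ligase that marks p53 for degradation, MDM4 is its relative that binds p53 and blocks its activity, and PPM1D is the phosphatase that switches the damage signal off again. *CDKN1A*, which encodes the cell cycle inhibitor p21, and *TP53INP1*, which encodes a stress-induced nuclear protein, are classical targets of p53, as *MDM2* and *PPM1D* are themselves, which closes the feedback. MDA-MB-231 cells are known to carry a mutant p53. HNRNPK binds single-stranded C-rich RNA through its KH domains, in the nucleus and in the cytoplasm, and is also known as a cofactor of p53.

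In PAR-CLIP a crosslinked 4-thiouridine is read as a T-to-C change, and a cluster is a short stretch of overlapping reads that carry such changes. The 4 libraries held between 3252800 and 6216226 reads in clusters, and no listed cluster had fewer than 5 reads. They differed in composition. Clusters in 3'UTRs took 31.6% of the reads of the parental cytoplasm and 47.4% of those of the KO cytoplasm, against 5.35% and 5.43% in the parental and KO nucleus. In the parental cytoplasm a single cluster held 5.83% of all reads. The share of reads that were unique lay between 19.0% and 45.6%. *KRT19* itself had 1 cluster of 7 reads in the parental cytoplasm and 1 of 5 reads in the KO cytoplasm, so few reads that they check neither the knockout nor the cell line. Levels are given below as reads per 1000000 reads in clusters of the same library (RPM), with 95% exact Poisson intervals. All intervals cover counting error only. The amount of an RNA, its binding by HNRNPK and the crosslinking and recovery of a library cannot be told apart in these values.

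*MDM2* carried the most reads of the 5 genes in both cytoplasmic libraries, and *MDM4* in both nuclear ones. *MDM2* was at 464 RPM (446 to 482) in the parental cytoplasm and at 473 RPM (456 to 491) in the KO cytoplasm, against 176 RPM (163 to 191) in the parental nucleus and 157 RPM (143 to 171) in the KO nucleus. Among named genes with a cluster it ranked 224 of 13388 in the parental cytoplasm and 1136 of 13517 in the parental nucleus by reads. *MDM4* was at 238 RPM (225 to 251) in the parental cytoplasm, at 386 RPM (371 to 402) in the KO cytoplasm, at 255 RPM (239 to 272) in the parental nucleus and at 341 RPM (321 to 362) in the KO nucleus. It was the member with the most even level over the 4 libraries and ranked between 311 and 713 among named genes.

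*PPM1D* lay well below both. It was at 69.7 RPM (62.9 to 77.01) in the parental cytoplasm, at 65.6 RPM (59.4 to 72.3) in the KO cytoplasm, at 24.9 RPM (19.95 to 30.6) in the parental nucleus and at 30.7 RPM (25.01 to 37.4) in the KO nucleus. The targets *CDKN1A* and *TP53INP1* had the fewest reads. *CDKN1A* had 19 reads in the parental cytoplasm, 67 in the KO cytoplasm and 22 in the parental nucleus, which are 3.42, 10.8 and 6.22 RPM, and it had no cluster in the KO nucleus. *TP53INP1* had 30 reads in the parental cytoplasm, 179 in the KO cytoplasm and 56 in the KO nucleus, which are 5.40, 28.8 and 17.2 RPM, and it had no cluster in the parental nucleus. Because the smallest listed cluster of 5 reads is worth 1.54 RPM in the KO nucleus and 1.41 RPM in the parental nucleus, weaker binding would go unlisted there. The intervals of neighbouring genes in this order did not overlap in the parental cytoplasm down to *PPM1D*, while those of *CDKN1A* (2.06 to 5.34 RPM) and *TP53INP1* (3.65 to 7.71 RPM) overlapped.

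**Figure D1:**
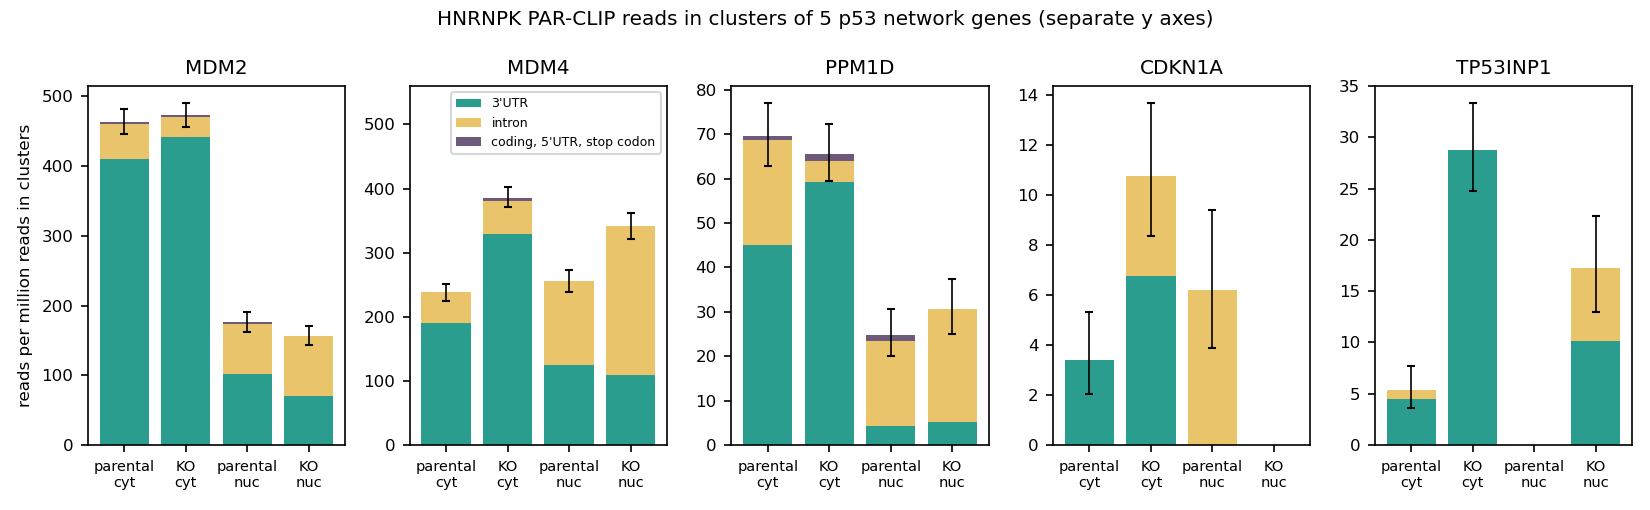
Reads per 1000000 reads in clusters (y axis, a separate scale for each gene) in the 4 libraries (x axis), stacked by the deposited class of the cluster. Error bars are 95% exact Poisson intervals of the total, counting error only. *MDM2* stood at 464 and 473 RPM in cytoplasm, mostly from 3'UTR clusters, and *MDM4* in the KO nucleus was mostly intronic.

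The genes differ in the length of their 3'UTR, so levels between genes were also set per kilobase, with lengths from the canonical transcripts of GENCODE v44 on GRCh37. Per kilobase of 3'UTR, *MDM2* had 72.1 RPM in the parental cytoplasm and 77.7 RPM in the KO cytoplasm over 5695 nt. *MDM4*, with the longest 3'UTR of the 5 at 8438 nt, had 22.6 and 39.0 RPM per kilobase in the same libraries. *PPM1D* had 16.5 and 21.7 RPM per kilobase over 2728 nt. *CDKN1A* had 2.23 and 4.41 RPM per kilobase over 1532 nt, and *TP53INP1* had 0.999 and 6.39 RPM per kilobase over 4507 nt. On this scale *MDM2* stood above every other member in cytoplasm. In the parental nucleus *MDM2* had 17.9 (16.1 to 19.9) and *MDM4* 14.8 RPM per kilobase (13.5 to 16.3), and in the KO nucleus the values were 12.4 (10.8 to 14.1) and 12.9 (11.6 to 14.4). The intervals overlapped in both nuclear libraries.

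The 278 clusters were joined across libraries where 2 of them shared 1 nt or more and ran on the same strand, which gave 189 sites. By the deposited classes 74 sites lay in a 3'UTR and 104 in an intron, and only 8 lay in coding sequence, 2 over a stop codon and 1 in a 5'UTR. Reads were spread very differently from sites. Of the member reads, 83.8% (Wilson interval 82.7 to 84.9) in the parental cytoplasm and 89.9% (89.1 to 90.6) in the KO cytoplasm were in 3'UTR clusters, against 49.97% (47.6 to 52.4) in the parental nucleus and 35.7% (33.5 to 38.0) in the KO nucleus. All 4 shares lay above those of the whole libraries. *MDM2* in the parental nucleus had 57.9% of its reads in the 3'UTR (53.9 to 61.7), and only 4.51% of the 10083 genes with at least 20 reads there had a higher share. *MDM4* had 48.9% (45.7 to 52.2), and 5.73% of genes were higher. Most of the 10083 genes had no 3'UTR cluster there, so their median share was 0%. The 3670 with such a cluster had a median of 14.3%. By 3'UTR reads alone, *MDM4* ranked 32 of 3973 genes in the parental nucleus and 36 of 4084 in the KO nucleus, and *MDM2* ranked 50 and 102.

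Most sites were seen once. Of the 189 sites, 133 had a cluster in a single library, 34 in 2, 12 in 3 and 10 in all 4, so 29.6% were found in at least 2 libraries and 5.29% in all 4. Over all 592021 sites of the series these shares were 22.6% and 1.68%. By class, 33.7% of the intronic sites of the members were found in at least 2 libraries against 24.4% of all intronic sites, whereas for 3'UTR sites the share was 27.0% against 32.0%. The 10 sites seen in all 4 libraries held 58.0% of all member reads. They were 2 sites in the 3'UTR and 3 in introns of *MDM2*, 3 in the 3'UTR and 1 in an intron of *MDM4*, and 1 in an intron of *PPM1D*. The 133 sites seen once had a median of 8 reads and a highest value of 193 reads. No site of *CDKN1A* or *TP53INP1* was found in more than 2 libraries. Of the 592021 sites of the series only 32311 were in 3 and 9939 in 4. With 4 sites in *CDKN1A* and 11 in *TP53INP1*, this is no result about these genes.

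**Figure D2:**
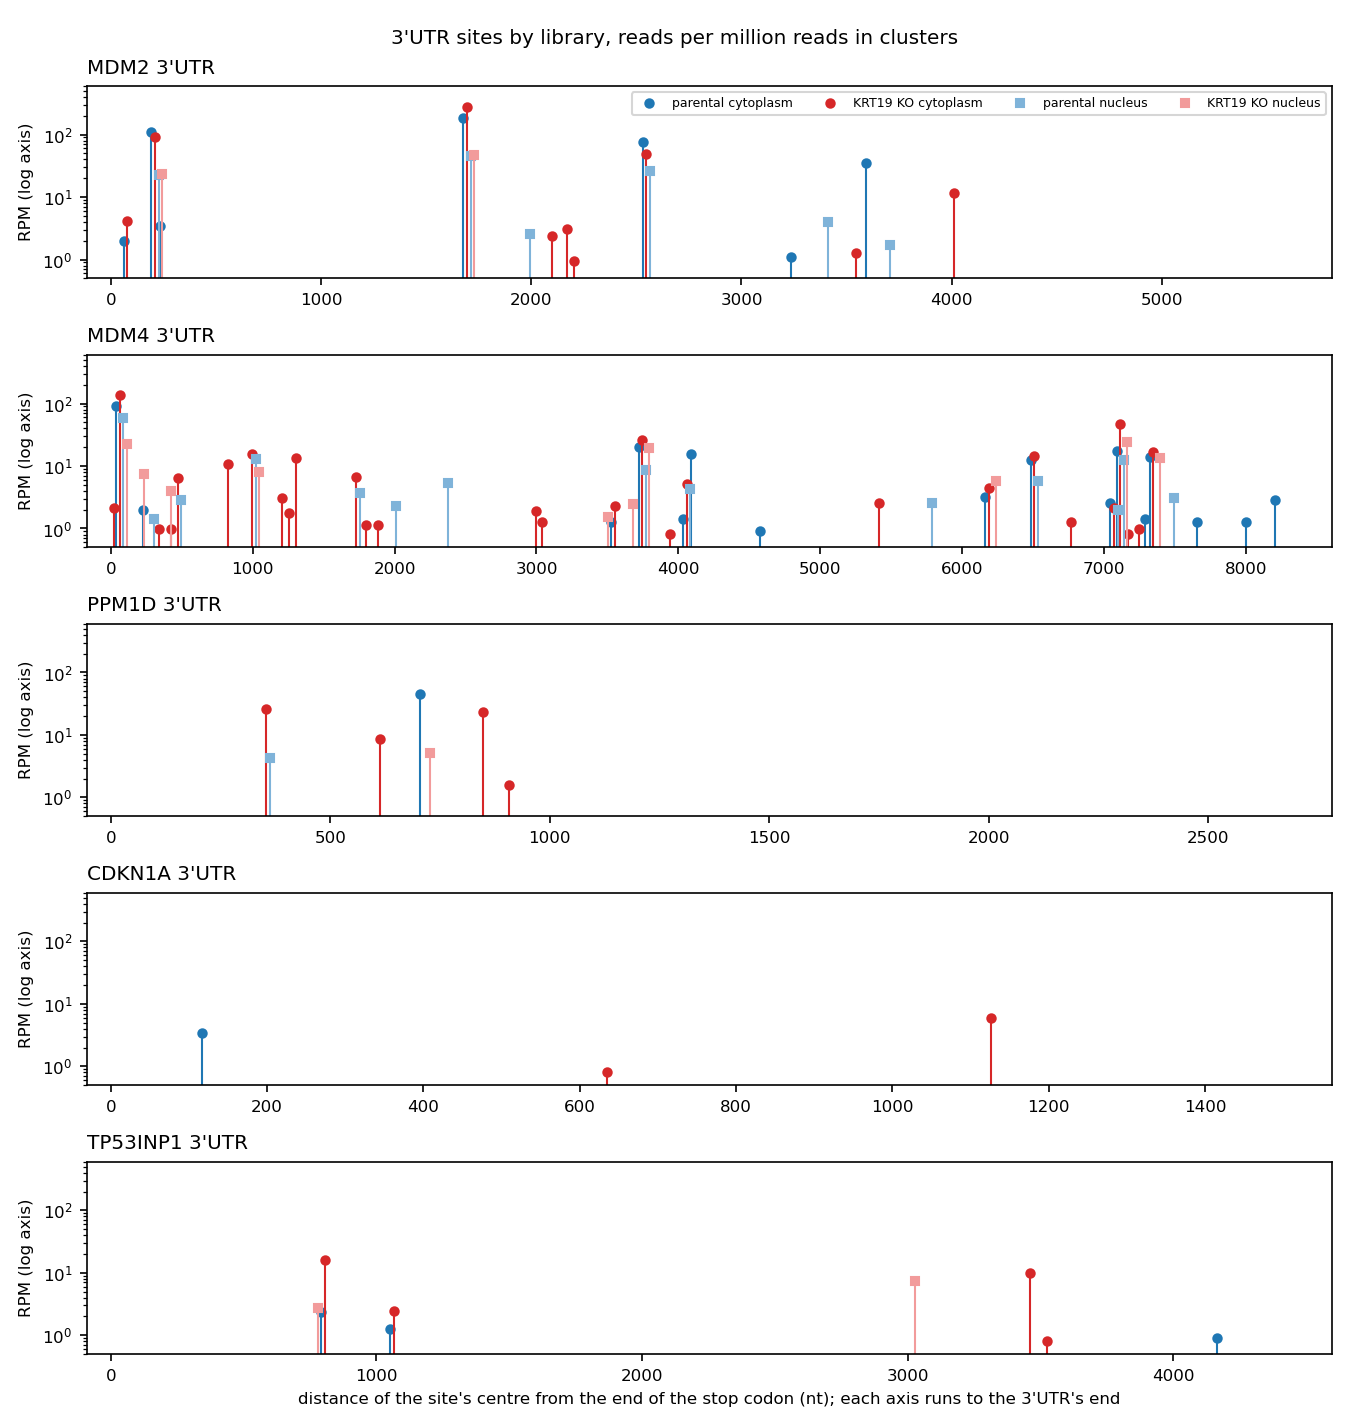
Sites in the 5 3'UTRs by distance of their centre from the end of the stop codon (x axis, nt, to the end of each 3'UTR) and their reads per 1000000 reads in clusters (y axis, log scale) in each library. Points of the same site are set slightly side by side. The *MDM2* and *MDM4* sites with the most reads carry points of all 4 libraries, while the *PPM1D*, *CDKN1A* and *TP53INP1* sites carry at most 2.

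*MDM2* spans chr12:69201957-69239324 on the plus strand (hg19), and most of its cytoplasmic reads came from 3 places in its last exon, exon 11. The site with the most reads of any member began 1670 nt after the stop codon, at chr12:69235299-69235364. It held 1006 reads in the parental cytoplasm, 1721 in the KO cytoplasm, 158 in the parental nucleus and 154 in the KO nucleus. That was 39.1% of all *MDM2* reads in the parental cytoplasm and 58.5% in the KO cytoplasm. A site 193 nt after the stop codon, at chr12:69233822-69233872, held 615, 574, 81 and 75 reads in the same order. A site 2535 nt after the stop codon, at chr12:69236164-69236206, held 429, 307 and 93 reads and had no cluster in the KO nucleus. These sites did not move together between the cell lines. The ratio of KO to parental cytoplasm was 1.53 (1.41 to 1.65) at the site 1670 nt after the stop codon, 0.834 (0.743 to 0.935) at the site 193 nt after it and 0.639 (0.550 to 0.742) at the site 2535 nt after it. The *MDM2* total stayed level over these opposite differences. Of the 2 sites found in every library, the ratio of KO to parental nucleus was 1.06 (0.843 to 1.33) at 1670 nt and 1.01 (0.726 to 1.40) at 193 nt.

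For 3 of the 5 *MDM2* sites seen in all 4 libraries, the stretch shared by their clusters is printed. They are read 5′ to 3′ on the RNA strand, on hg19, with the first of the longest uninterrupted runs of C and T in capitals. For the site at 193 nt the middle 30 of 33 shared bases are given.
MDM2 3'UTR at 1670 nt, chr12:69235329-69235356: TTTTTCacacacaaaaaaatcctttatg
MDM2 3'UTR at 193 nt, chr12:69233832-69233861: caccaaCTCCTaattttaaataatttctac
MDM2 intron 8, chr12:69227781-69227806: CTCCTTCCTaacattactctaaaaaa
None of these 3 stretches holds CCC. The 3'UTR stretches have C in short runs among A and T, with a longest run of C and T of 6 and 5 nt, and the intronic one opens with a run of 9 nt. The intronic stretches not printed had longest runs of 5 nt in intron 7 and 4 nt in intron 8, without CCC. So a longer run was not a trait of the intronic sites.

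Introns of *MDM2* held 36 sites. They had 280 of the 2575 *MDM2* reads in the parental and 176 of 2941 in the KO cytoplasm, but 253 of 624 in the parental and 281 of 510 in the KO nucleus. Of these sites, 3 were seen in all 4 libraries. A site in intron 7 at chr12:69220020-69220054 had 33, 18, 39 and 22 reads in the order parental cytoplasm, KO cytoplasm, parental nucleus and KO nucleus. A site in intron 8 at chr12:69225840-69225872 had 53, 25, 30 and 35 reads, and the other site in intron 8, shown above, had 36, 17, 16 and 22. At all 3 the KO cytoplasm was the lowest library in RPM, and its ratio to the parental cytoplasm lay between 0.421 and 0.487. The intronic class as a whole took 42.3% of the reads of the parental cytoplasm and 23.0% of those of the KO cytoplasm. The *MDM2* 3'UTR also had sites of high reads in 1 library only, namely 193 reads in the parental cytoplasm 3599 nt after the stop codon and 73 reads in the KO cytoplasm 3977 nt after it.

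*MDM4* spans chr1:204485507-204527248 on the plus strand (hg19) and had the most sites of the 5 genes, 86, of which 44 lay in its 3'UTR. Its leading site lay directly behind the stop codon, 54 nt after it, at chr1:204518864-204518905. It held 515 reads in the parental cytoplasm, 849 in the KO cytoplasm, 204 in the parental nucleus and 74 in the KO nucleus. The ratio of KO to parental was 1.47 (1.32 to 1.65) in the cytoplasm and 0.395 (0.298 to 0.517) in the nucleus, so the fractions lay on opposite sides of 1. The KO nuclear value rests on 15 unique reads. Toward the far end of the 3'UTR, 7108 nt after the stop codon, the site at chr1:204525918-204525954 held 96, 297, 44 and 79 reads in the same order of libraries. Here the KO was higher in both fractions, with a ratio of 2.76 (2.19 to 3.52) in the cytoplasm and 1.95 (1.33 to 2.89) in the nucleus. A site 3744 nt after the stop codon, at chr1:204522554-204522582, held 111, 164, 31 and 63 reads, with ratios of 1.32 (1.03 to 1.69) and 2.21 (1.42 to 3.52).

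The *MDM4* stretches shared by the 4 libraries are shown in the same way, because they range from long C/T runs to a sequence of mostly A and T.
MDM4 3'UTR at 54 nt, chr1:204518870-204518895: aaTCCTTTatttaattttatttccaa
MDM4 3'UTR at 3744 nt, chr1:204522561-204522582: ctttcactttcaaaCCTCTTCa
MDM4 3'UTR at 7108 nt, chr1:204525930-204525954: TTTTTCCCCCTTTTaaaatcaacag
MDM4 intron 5, chr1:204502404-204502431: CTTTTTCCCTCTCCactactacataaag
The site at 7108 nt and the intronic site each hold an unbroken C/T run of 14 nt with at least 3 C in a row. The site at 54 nt, which had the most reads, has a longest run of 6 nt and no CCC.

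*MDM4* also carried the strongest intronic site of the 5 genes, in intron 5 at chr1:204502403-204502435, 1028 nt behind exon 5. It held 130 and 132 reads in the parental and KO cytoplasm, and 109 and 269 in the parental and KO nucleus. The ratio of KO to parental was 0.907 (0.706 to 1.16) in the cytoplasm and 2.68 (2.14 to 3.38) in the nucleus. It made up 24.2% of all *MDM4* reads in the KO nucleus. Of the 39 sites listed under *MDM4* as intronic, 10, with 239 reads together, lay 6158 to 15485 nt beyond the end of the gene in GENCODE v44. They are counted here as deposited, and the annotation behind the deposited gene names is not given in the sources used here. Of the 29 inside the gene, 16 were found in nuclear libraries alone and 6 in cytoplasmic ones alone. Both nuclear libraries and neither cytoplasmic one shared 4 of the 29, against 1 with the reverse pattern, and with the sites beyond the gene these counts were 7 and 2. The same shares over all intronic sites were not computed, so these counts are no result about *MDM4*. Introns took 67.0% and 59.7% of all reads in the parental and KO nucleus, against 42.3% and 23.0% in the cytoplasm. Nuclear and cytoplasmic sites alone numbered 15 and 10 in *MDM2* introns, and 8 and 14 in *PPM1D* introns. Only 4 intronic sites of *MDM4* lay within 100 nt of an exon. One of them, with 13 reads in the parental cytoplasm alone, began 30 nt behind exon 6, the exon whose skipping gives the short form MDM4-S. Another, with 27 reads in the parental nucleus alone, ended 83 nt before exon 7. A site 70 nt behind exon 4 had 8 and 28 reads in the parental and KO nucleus. A site 40 nt behind exon 7 had 12 and 6 reads in the parental and KO cytoplasm. Splicing was not tested.

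**Figure D3:**
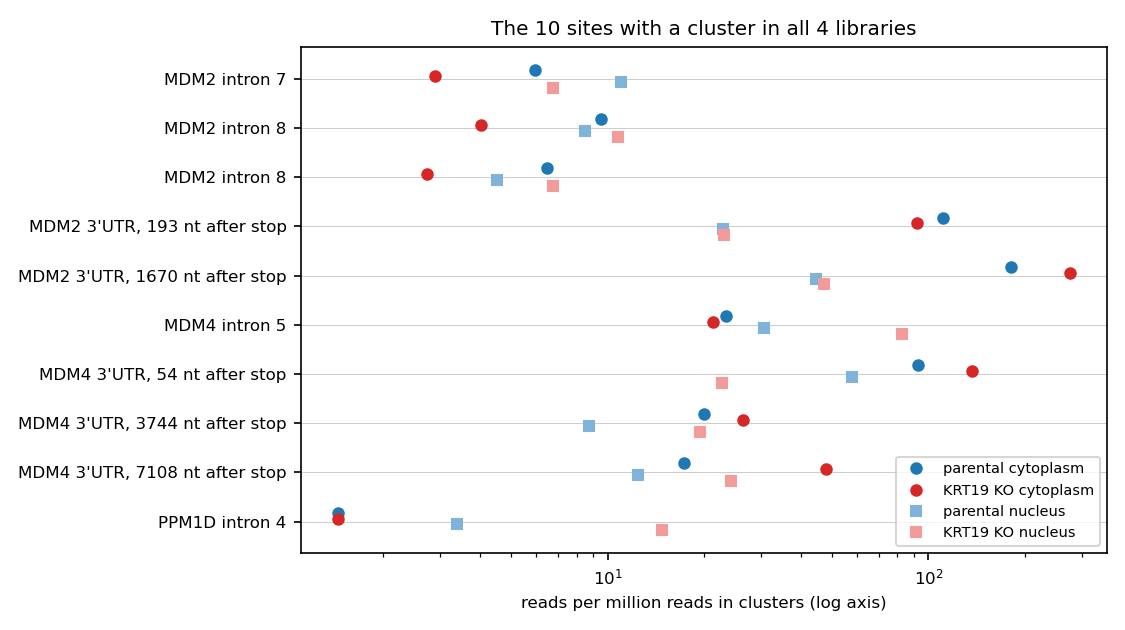
Reads per 1000000 reads in clusters (x axis, log scale) at the 10 sites that had a cluster in all 4 libraries (y axis), circles for cytoplasm and squares for nucleus. At both *MDM2* 3'UTR sites the cytoplasmic points lie to the right of the nuclear ones, at 111 and 92.3 against 22.9 and 23.1 RPM for the site at 193 nt. At the *MDM4* intron 5 site the KO nucleus stands apart at 82.7 RPM.

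*PPM1D* spans chr17:58677554-58743641 on the plus strand (hg19) and had 33 sites, 5 in the 3'UTR and 24 in introns. Its 3'UTR had 250 reads (45.03 RPM) in the parental and 368 reads (59.2 RPM) in the KO cytoplasm, yet no 3'UTR site was shared by the 2 libraries. The parental cytoplasm had all its 250 reads in 1 cluster 699 nt after the stop codon, at chr17:58741612-58741645, which the KO nucleus also had with 17 reads. The KO cytoplasm had no cluster there and instead had 159 reads 343 nt after the stop codon, at chr17:58741256-58741286, a site that also had 15 reads in the parental nucleus. It had a further 146 reads at 834 nt and 53 reads at 589 nt, where no other library had a cluster. The sequences of the 3 leading sites and of the intronic site seen in all 4 libraries are given to show their C/T runs. The stretch at 834 nt is the middle 30 of 37 bases.
PPM1D 3'UTR at 699 nt, chr17:58741616-58741645: ctaaaacaaTTCCCTTCTTTTTCatcccag
PPM1D 3'UTR at 343 nt, chr17:58741258-58741286: ttaaaCTTTTTaaaatacttattaaaaaa
PPM1D 3'UTR at 834 nt, chr17:58741750-58741779: cccaacaTTTCTTaaattattttatatcat
PPM1D intron 4, chr17:58726592-58726616: cattttcatcatcaTCCCCTaacag
The stretch at 699 nt has a C/T run of 14 nt, against 6 nt at each of the other 3'UTR stretches. C and T made up 70.0% of it, 48.3% of the stretch at 343 nt and 66.7% of that at 834 nt.

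Most clusters of this size had a counterpart, though a sizeable part did not. In the whole series, 82.2% of the parental cytoplasmic 3'UTR clusters of 100 to 499 reads overlapped a cluster of the KO cytoplasm, and 69.6% of the KO cytoplasmic ones overlapped a parental one. Among the 5 genes this held for 2 of 4 and for 4 of 6 clusters, and the exceptions were the *PPM1D* clusters at 699, 343 and 834 nt and the *MDM2* cluster at 3599 nt. The member share of the KO cytoplasm, 66.7%, was near that of the series and is no result about the members. The 4 parental clusters are too few to compare a share. Of member 3'UTR clusters with at least 500 reads, 3 of 3 had a counterpart in each direction. In the whole series 90.2% of such parental and 78.5% of such KO cytoplasmic clusters had one, so this is no result about the members. The *PPM1D* intron 4 site at chr17:58726581-58726620 had 8 and 9 reads in the parental and KO cytoplasm and 12 and 48 in the parental and KO nucleus. The *PPM1D* introns as a whole differed between the cytoplasmic libraries: 132 reads in 13 clusters were intronic in the parental and 29 reads in 4 clusters in the KO library. These are 23.8 and 4.67 RPM. The intronic share of the whole library was 42.3% in the parental and 23.0% in the KO cytoplasm. Whether the 2 differences are related was not tested.

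*CDKN1A* spans chr6:36644237-36655114 on the plus strand (hg19) and had 5 clusters at 4 sites. The parental cytoplasm had 19 reads at chr6:36653687-36653712, 110 nt after the stop codon. The KO cytoplasm had none there and had 37 reads at chr6:36654691-36654718, 1114 nt after the stop codon, and 5 reads 624 nt after it. A site in intron 1, at chr6:36650080-36650109, had 25 reads in the KO cytoplasm and 22 in the parental nucleus. So none of its 3'UTR sites was found in 2 libraries, where 32.0% of all 3'UTR sites were in at least 2. Its 3 3'UTR sites are too few to compare a share. The site at 1114 nt is shown as the most C-rich one among the 3'UTR sites printed here, beside the intronic site.
CDKN1A 3'UTR at 1114 nt, chr6:36654691-36654718: cttcctcatccaccccaTCCCTCCCCag
CDKN1A intron 1, chr6:36650082-36650109: cataaaaatatataaataaaTCCCaact
Of the reads at the 3'UTR site 29.7% carried a T-to-C change, and its 28 bases hold 6 T.

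C-rich words were not more frequent in the member clusters than in the libraries. The words searched were the 6 of the form NNCCC in which the first base is T or A and the next is T, C or A, on the RNA strand of the cluster only. Neighbouring words can overlap, and a cluster was counted once. A word was found in 17 of 69 clusters (24.6%, Wilson interval 16.0 to 36.0) of the parental cytoplasm, 22 of 85 (25.9%, 17.8 to 36.1) of the KO cytoplasm, 16 of 63 (25.4%, 16.3 to 37.3) of the parental nucleus and 18 of 61 (29.5%, 19.6 to 41.9) of the KO nucleus. Over all clusters the shares were 29.8%, 30.1%, 32.9% and 33.6%. In 3'UTR clusters alone the members were at 13.8% in the parental cytoplasm, 4 of 29 clusters, against 24.8% of all 3'UTR clusters. In the KO nucleus they were at 40.0%, 6 of 15 clusters, against 34.6%. Of the 10 sites seen in all 4 libraries, 3 hold a word in the shared stretch. A match is a description of the sequence and not a binding site by itself. G made up 5.77% to 11.1% of the bases in member clusters, and the reads had been cut with RNase T1, which cuts after G.

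The share of member reads with a T-to-C change was 53.1% (Wilson interval 51.6 to 54.6) in the parental cytoplasm and 57.4% (56.1 to 58.6) in the KO cytoplasm. It was 66.0% (63.6 to 68.2) in the parental nucleus and 69.6% (67.4 to 71.7) in the KO nucleus. Over all clusters the shares were 66.4%, 59.6%, 72.9% and 76.7%, so the members lay below their library each time. 3'UTR clusters had the lower conversion in the cytoplasmic libraries as a whole, at 53.4% and 55.1%, and the members' 3'UTR clusters were close to that, at 51.1% and 55.7%. Other classes were less close. Intronic member reads were at 62.5% and 71.0% in the parental and KO cytoplasm, against 74.3% and 68.0% of all intronic reads. In the parental and KO nucleus they were at 62.1% and 74.3%, against 73.9% and 78.5%. Member 3'UTR reads there were at 69.2% and 61.2%, against 65.8% and 69.3%. At the leading *MDM2* site the share was 39.1%, 49.7%, 56.3% and 31.8% in the order parental cytoplasm, KO cytoplasm, parental nucleus and KO nucleus. The last value comes from 154 reads, of which 21 were unique.

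*TP53INP1* lies on chr8:95938200-95961606 on the minus strand (hg19) and had 13 clusters at 11 sites. Its strongest site began 794 nt after the stop codon, at chr8:95941877-95941913, with 13 reads in the parental and 98 in the KO cytoplasm, a ratio of 6.73 (3.76 to 13.1). A site 1058 nt after the stop codon had 7 and 15 reads, a ratio of 1.91 (0.734 to 5.55). A site 3453 nt after it had 61 reads in the KO cytoplasm alone. The parental nucleus had no cluster, and in the KO nucleus the gene had 2 3'UTR clusters with 33 reads and 3 intronic ones with 23. The 2 3'UTR clusters of the KO nucleus overlapped none of the cytoplasmic ones. The same share over the series was not computed, and 2 clusters are too few to compare.

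Between the cytoplasmic libraries, *CDKN1A* and *TP53INP1* were past 2-fold, both higher in the KO, and *MDM2*, *MDM4* and *PPM1D* were not. The ratio of KO to parental RPM was 3.15 (1.87 to 5.55) for *CDKN1A*, from 67 and 19 reads, and 5.33 (3.61 to 8.13) for *TP53INP1*, from 179 and 30 reads. *MDM4* was higher by a ratio of 1.62 (1.52 to 1.74). *MDM2* at 1.02 (0.967 to 1.08) and *PPM1D* at 0.942 (0.817 to 1.08) had intervals that held 1. So 2 of 5 members were past 2-fold, where 42.2% of the 10399 genes with at least 20 reads were, 20.3% of them higher in the KO. A share of this size is near the background and is no result about the members. Only 4.04% of these genes had a higher ratio than *TP53INP1* and 9.85% a higher one than *CDKN1A*.

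The clusters counted and the scale both matter for these ratios. 3'UTR clusters took a larger part of the KO library, and counting them alone drops the other reads of a gene. For *CDKN1A* this left 42 of 67 reads in the KO cytoplasm and all 19 in the parental cytoplasm. These changes were not separated. Relative to the reads in 3'UTR clusters alone, *TP53INP1* kept a ratio of 4.27 (2.80 to 6.77), while *CDKN1A* was at 1.32 (0.750 to 2.40), *MDM4* at 1.15 (1.07 to 1.24), *PPM1D* at 0.877 (0.745 to 1.03) and *MDM2* at 0.719 (0.680 to 0.760). On this scale 1 of 5 was past 2-fold, against 43.3% of 5032 genes. Without the cluster with the most reads in each library, the *PPM1D* value moved from -0.09 to 0.70 and the *MDM2* value from 0.03 to -0.53 on the log2 scale.

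In the nucleus none of the 3 members with clusters in both lines was past 2-fold, where 34.0% of 10839 genes were. The ratio of KO to parental was 0.889 (0.789 to 1.00) for *MDM2*, 1.34 (1.22 to 1.46) for *MDM4* and 1.24 (0.919 to 1.66) for *PPM1D*. *MDM4* was thus higher in the KO in both fractions on this scale. In 3'UTR clusters alone its log2 ratio was 0.21 (0.10 to 0.31) in the cytoplasm and -0.22 (-0.42 to -0.01) in the nucleus. The nuclear value includes the site 54 nt after the stop codon, with 204 parental and 74 KO reads. *CDKN1A* and *TP53INP1* each lacked a cluster in 1 nuclear library, so no ratio is given. In 3'UTR clusters, too, 0 of 3 members were past 2-fold in the nucleus, against 49.0% of 2471 genes.

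**Figure D4:**
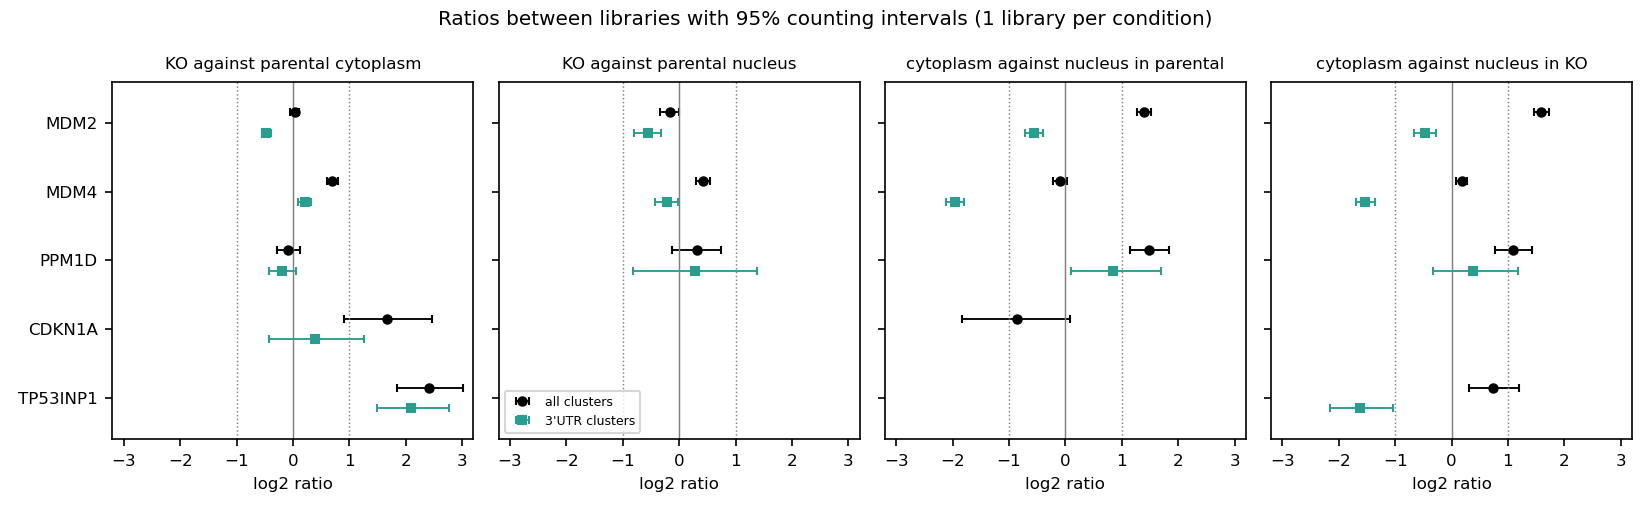
Log2 ratios between libraries (x axis) for the 5 genes (y axis), in all clusters (circles) and in 3'UTR clusters scaled to 3'UTR reads (squares), with 95% counting intervals and dotted lines at 2-fold. Genes without a cluster in one of the libraries have no point. *TP53INP1* lies past 2-fold on both scales between the cytoplasmic libraries, and *MDM2* changes side between the scales when cytoplasm is set against nucleus.

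Between fractions, *MDM2* and *PPM1D* were higher in cytoplasm in both lines and *MDM4* was nearly even. In parental cells the ratio of cytoplasm to nucleus was 2.63 (2.41 to 2.87) for *MDM2*, 2.80 (2.22 to 3.57) for *PPM1D*, 0.932 (0.856 to 1.02) for *MDM4* and 0.550 (0.282 to 1.07) for *CDKN1A*. In KO cells it was 3.02 (2.75 to 3.32) for *MDM2*, 2.13 (1.71 to 2.68) for *PPM1D*, 1.13 (1.05 to 1.22) for *MDM4* and 1.67 (1.23 to 2.30) for *TP53INP1*. In each line 2 of 4 members were past 2-fold, both higher in cytoplasm, where 52.4% of genes were past 2-fold in parental and 64.2% in KO cells, with 14.5% and 20.1% higher in cytoplasm. Only 10.5% of genes had a higher ratio than *MDM2* in parental cells and 14.2% in KO cells.

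These ratios also follow the classes. Relative to the 3'UTR reads of each library, *MDM2* was lower in cytoplasm, with log2 ratios of -0.56 in parental and -0.47 in KO cells in place of 1.39 and 1.59, and *MDM4* was at -1.96 and -1.53 in place of -0.10 and 0.18. On that scale 1 of 3 members in parental and 2 of 4 in KO cells were past 2-fold, against 64.0% and 63.3% of genes. For *PPM1D* in parental cells the single cluster of 250 reads carried the difference, and without the cluster with the most reads in each library its log2 ratio was 0.34 in place of 1.49. In KO cells the same omission took *PPM1D* from 1.09 to 1.33. It took *MDM2* from 1.39 to 1.10 in parental cells and from 1.59 to 0.84, no longer past 2-fold, in KO cells.

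Genes with the most similar pattern were those nearest in 4 centred log2 RPM values, among 7462 genes with at least 200 reads and a cluster in each library. For *MDM2* they were *RNF169* (distance 0.131) and *TMTC3* (0.135), for *MDM4* *RSBN1L* (0.0766) and *DPM1* (0.0878), and for *PPM1D* *GRB2* (0.171) and *MPC1* (0.192). The median distance was 2.39, 1.69 and 2.26. *RNF169*, which encodes a ubiquitin ligase of the DNA damage response, had 373, 427, 145 and 128 RPM in the order parental cytoplasm, KO cytoplasm, parental nucleus and KO nucleus. With 4 values a gene, nearness is a description only.

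A wider list of 45 p53 network genes placed the members among their partners. It held 15 regulators of p53 (kinases, ubiquitin ligases, acetylases and binding proteins), 15 cell cycle and repair targets and 15 death and survival genes, and 44 of them had a cluster in some library. The 5 with the most reads were *BCL2L1*, the survival factor BCL-xL, *RFWD2*, the ubiquitin ligase COP1, the kinase *HIPK2*, the acetylase *CREBBP* and the checkpoint kinase *CHEK1*. *BCL2L1* had 314, 357, 616 and 667 RPM in the order parental cytoplasm, KO cytoplasm, parental nucleus and KO nucleus, so in both nuclear libraries it stood above each of the 5 members. Only *BCL2L1* and *RFWD2* of these 5 exceeded *MDM4* in the KO nucleus. In the parental nucleus, where *MDM4* was at 255 RPM, *HIPK2* at 419 RPM and *CREBBP* at 277 RPM exceeded it as well. *RFWD2* had 314, 225.7, 437 and 471 RPM with 0, 35, 0 and 10 reads in 3'UTR clusters, whereas *CHEK1* had 184, 280, 107 and 135 RPM with 615 and 888 cytoplasmic 3'UTR reads.

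Between the cytoplasmic libraries, 37 genes of the list had enough reads, of which 6 were higher and 5 lower past 2-fold in the KO, or 29.7% against 42.2% of all genes. The median log2 ratio was -0.01, beside -0.07 over all genes. By group, 4 of 12 cell cycle and repair genes were higher (*CCNG1*, *SESN2*, *GADD45A* and *RRM2B*) and 3 lower (*BTG2*, *SESN1* and *XPC*), with a median of 0.70. Over all genes 20.3% were higher and 21.9% lower past 2-fold. Few reads lay behind *SESN2* (6 in the parental and 26 in the KO cytoplasm), *GADD45A* (17 and 40), *BTG2* (29 and 5) and *XPC* (43 and 23). Of 11 death and survival genes 2 were higher, the decoy receptor *TNFRSF10D* and the nuclease *AEN*, and 1 lower, the apoptosome gene *APAF1*. Of 14 regulators none was higher and 1, the damage kinase *ATM*, was lower (log2 ratio -1.37, from 1393 and 605 reads). The cyclin gene *CCNG1* stood farthest out, with 18 reads in the parental and 1110 in the KO cytoplasm. In the nucleus 6 of 35 genes were higher and 6 lower, or 34.3% past 2-fold against 34.0% of all genes. Of the 34 that could be compared in both fractions, 0 were past 2-fold the same way in both, beside 1003 of the 9159 genes of the series that could. Past 2-fold in opposite ways were 2, beside 384 of the 9159 (4.19%). They were the repair gene *XPC* and *RRM2B*, which encodes a ribonucleotide reductase subunit and lay just past the line at log2 ratios of 1.00 in the cytoplasm and -1.01 in the nucleus.

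**Figure D5:**
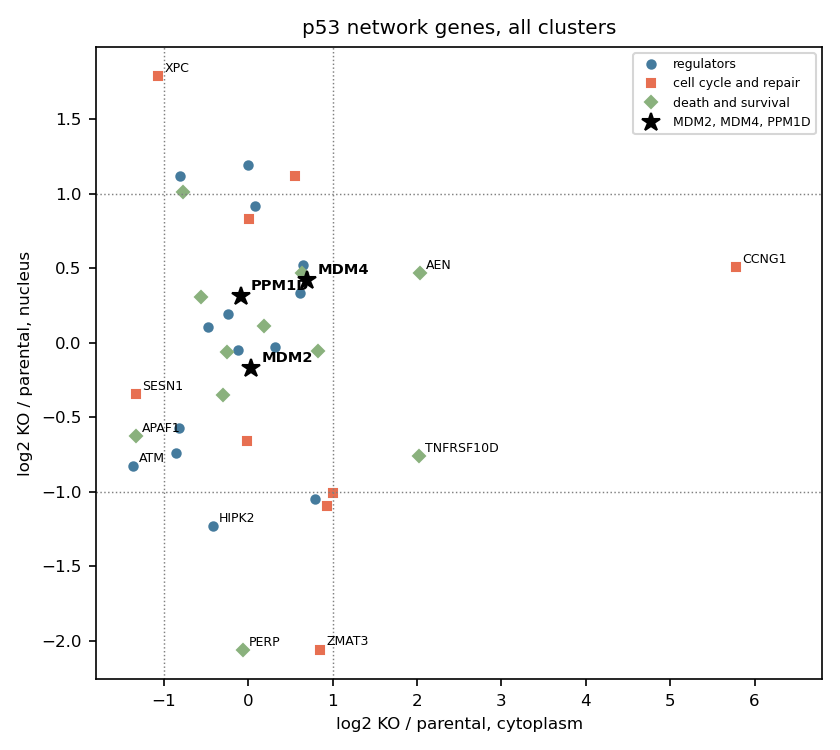
Log2 ratio of KO to parental RPM in the cytoplasm (x axis) and the nucleus (y axis) for the listed p53 network genes with reads in both comparisons, marked by group, and for *MDM2*, *MDM4* and *PPM1D* as stars. Dotted lines mark 2-fold. The 3 stars lie inside the 2-fold lines, and *CCNG1* lies farthest to the right.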

How the data were processed

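Clusters of 4 HNRNPK PAR-CLIP libraries were analysed. According to the study's methods, the authors demultiplexed reads with bcl2fastq 2.20.0 and cutadapt, collapsed identical sequences, aligned to hg19 and called and annotated clusters in each library with PARalyzer inside PARpipe; versions of the latter are not given in the sources used here. The deposited tables give read counts, unique read counts and reads with a T-to-C change as counts per cluster, not normalized. The deposited fraction, score and log10 columns were not used. At every cluster on the chromosomes but 1, the sequence equalled GRCh37. Of the 278 member cluster sequences, 277 occur once in the genome.

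RPM, exact Poisson, Wilson and conditional binomial intervals were computed with Python 3.11.15, pandas 2.3.3 and scipy 1.17.1, and the steps were tested on simulated data. Ratios were taken for genes with at least 20 reads in both libraries together and a cluster in each, and called past 2-fold. With 1 library per condition no test across conditions was possible. The members and gene lists were chosen with earlier results of these data known. Named were all 5 members, their most-read and most-shared sites, the 2 genes nearest to each member with at least 20 reads in each library, and of the 45 listed genes the 5 with the most reads and any past 2-fold the same way in both fractions. The genes of the list named for passing 2-fold in 1 fraction and the sites near *MDM4* exons were named after their values were seen. Alternatives were a minimum of 10 reads or 2 conversion locations, 50% overlap, unique reads, scaling without the top cluster and mitochondrial clusters, 3'UTR clusters alone, and, added after seeing the data, removing each member's most-read cluster.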

Additional observations from a re-analysis of the deposited data

Results flagged for a closer look

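*MDM4* in 3'UTR clusters stood out because its log2 ratio of KO to parental lay on opposite sides of 0 in the fractions, each with a counting interval that left out 0: it was 0.21 in the cytoplasm, from 2048 and 1058 reads, and -0.22 in the nucleus, from 355 and 442 reads. The difference between the fractions was not tested, since each value compares 1 library with 1 library. The nuclear value leans on the site 54 nt after the stop codon, with 204 parental and 74 KO reads, the latter from 15 unique reads. Of the other sites found in both nuclei, the one at 988 nt had 46 and 26 reads. Those at 3744 and 7108 nt were higher in the KO, with 31 and 63 and with 44 and 79 reads. The ratio without the site at 54 nt was not computed. In all clusters both values were above 0, at 0.70 and 0.42.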

How the results depend on the processing

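No paired analysis was possible because each condition had 1 PAR-CLIP library, and for the same reason none could be left out. With clusters of at least 10 reads the 189 sites became 109, and the 3'UTR share of member reads moved from 87.3% to 89.3% in cytoplasm and from 42.5% to 44.4% in the nucleus. With at least 2 conversion locations there were 86 sites, 30 in place of 56 in at least 2 libraries, and 3'UTR shares of 89.8% and 50.3%. Counting each cluster once, the shares were 49.4% and 29.03%. The T-to-C share moved from 58.6% to 56.8% with at least 10 reads and to 56.5% with at least 2 conversion locations. The share of clusters with a word moved from 26.3% to 35.3% when CCC anywhere was counted. With 3'UTR clusters alone, 1 member was past 2-fold between the cytoplasmic libraries and 1 between the parental fractions, and *MDM2* turned from higher to lower in cytoplasm, at -0.56 in parental and -0.47 in KO cells on the log2 scale. Without the cluster with the most reads of each member, an alternative chosen after seeing the data, 1 member was past 2-fold between the cytoplasmic libraries, 1 between the parental fractions and 1 between the KO fractions. The causes were not tested. Of the other 23 values of these summaries under alternatives, each stayed within 1.5 times the main count or within the counting interval. For single genes, 46 log2 ratios stayed within their counting interval, 28 moved outside it and 2 changed side. Depth limits *CDKN1A* and *TP53INP1* most, at 19 and 30 reads in the parental cytoplasm, and a site without a cluster may lie under the 5 reads of the smallest listed one.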
